A study of Mus musculus with 16 samples.

Results

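Lpl encodes lipoprotein lipase, the secreted enzyme that splits the triglycerides carried by lipoproteins into fatty acids and glycerol. The gene was taken as the single row for Lpl among the 21804 genes of the count table. It was chosen by its measured levels, because ret/ret and ret/wt differed in opposite directions in thalamus and cortex. Those genotype differences are given as a description, with no test. The annotation places it on chromosome 8 of GRCm38, from 68880491 to 68907448 on the plus strand (GENCODE M21, ENSMUSG00000015568). It lists 5 transcripts, of which 1 is protein-coding, with 10 exons and a spliced length of 4115 bases. The counts were summed over the gene, so the transcripts were not told apart.

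The data were RNA sequencing of brain tissue from 8 mice of the C57BL/6 strain at 4 months of age. Control animals were Pdgfb ret/wt, with 1 copy of the retention allele, and the others were Pdgfb ret/ret. The control is therefore a heterozygote and no animal without the allele was compared. PDGF-B is the growth factor by which endothelium recruits pericytes, and the retention allele deletes the motif that keeps it bound close to the vessel. A cortex and a thalamus library were made from every animal, which gives 4 groups of 4 libraries. Per the labels, the pieces labelled ret/ret thalamus were autofluorescent calcifications picked out surgically under a stereomicroscope, and the corresponding region was taken from controls. Cortex does not calcify in either genotype. In the thalamus, genotype and the picking of calcified tissue cannot be told apart. The retention allele was not limited to a cell type by any promoter, and each library came from tissue pieces, not from sorted cells.

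Lipoprotein lipase is made by parenchymal cells, best known from adipocytes and muscle. It is matured in the endoplasmic reticulum with lipase maturation factor 1 and carried across capillary endothelium by GPIHBP1. There it is activated by apolipoprotein C-II and inhibited by angiopoietin-like proteins. In the brain, Lpl transcripts are known from neurons and from glia, and Lpl is one of the genes used to mark disease-associated microglia, which surround amyloid plaques and other lesions. Brain capillaries are known for a lack of GPIHBP1.

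Lpl was detected in all 16 libraries, with 39 to 871 counts per library. Levels are CPM, the share of a library's counts brought to the usual common total, after TMM scaling between libraries. In ret/wt cortex the 4 libraries stood at 26.5, 35.7, 19.1 and 47.3 CPM, a mean of 32.2 ± 12.1 (SD, n = 4). Ret/wt thalamus stood at 2.5, 3.27, 2.33 and 3.81 CPM, a mean of 2.98 ± 0.689 (SD, n = 4). All 4 control cortices were above all 4 control thalami, and the means differed 10.8-fold. Such a separation, lower in thalamus, was seen for 1623 of 15286 genes (10.6%).

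In ret/ret cortex the libraries held 12.9, 4.62, 21.9 and 15.9 CPM, a mean of 13.8 ± 7.21 (SD, n = 4). Ret/ret thalamus held 9.8, 10.6, 8.29 and 8.6 CPM, a mean of 9.32 ± 1.07 (SD, n = 4). Here the regions overlapped, since the lowest cortex library was under every thalamus library, and the means differed 1.48-fold. In ret/ret, 1391 genes (9.1%) were lower in thalamus with no overlap. The calcified thalamus pieces were the most uniform group, with a coefficient of variation of 11.5%, against 52.1% in ret/ret cortex.

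**Figure D1:**
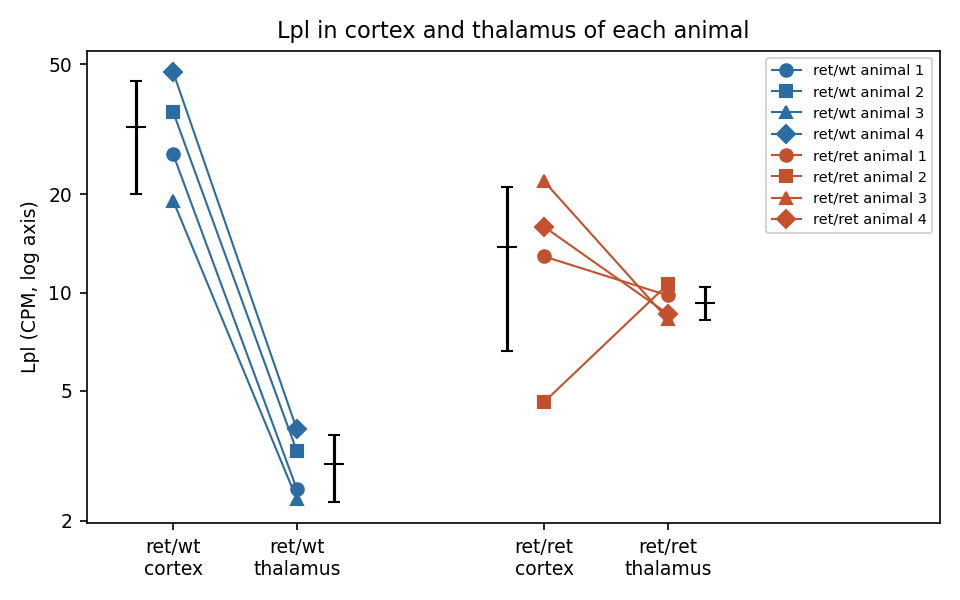
Lpl level of each library in CPM (log axis), with a line joining the cortex and the thalamus of each animal and black bars for the group mean ± SD (n = 4). The 4 ret/wt lines all drop steeply from cortex to thalamus, whereas the ret/ret lines are shallower and that of replicate 2 goes up.

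The order of the group means was ret/wt cortex, ret/ret cortex, ret/ret thalamus and ret/wt thalamus. The first pair of neighbours overlapped, because ret/wt cortex reached down to 19.1 CPM and ret/ret cortex up to 21.9 CPM. The second pair, the regions of ret/ret, overlapped as well. The last pair did not: the lowest ret/ret thalamus value was 8.29 CPM and the highest ret/wt thalamus value 3.81 CPM. The counts behind these 2 values give exact Poisson 95% intervals of 7.1 to 9.63 CPM and 2.9 to 4.92 CPM. Such intervals show the precision of a library's count, not the spread between animals, and PCR copies of a fragment are not separate molecules.

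Between genotypes, the mean was 3.13-fold higher in ret/ret than in ret/wt thalamus, and 2.33-fold higher in ret/wt than in ret/ret cortex. The model fitted across all genes gave a ret/ret minus ret/wt log2 difference of 1.67 ± 0.28 (SE) in thalamus and -1.20 ± 0.44 in cortex. The difference between these 2 effects was 2.86 ± 0.53 on the log2 scale. No p is attached to these 3 values, which chose the gene. For background, edgeR (quasi-likelihood test, Benjamini-Hochberg adjusted p under 0.05) called 0 of 14767 genes between genotypes in thalamus (0%; 581 genes at an unadjusted p under 0.05). DESeq2's Wald test called 37. In cortex edgeR called 3 of 14288 genes (0.021%), against 38 with DESeq2. It called 0 of 15286 genes for the difference between the effects (0%; 245 at an unadjusted p under 0.05), against 4 with DESeq2.

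Opposite signs of this kind were not rare, but large ones were. Of 14058 genes tested in both regions, 2518 (17.9%) had a positive log2 difference in thalamus and a negative one in cortex. A difference above 1 in thalamus together with one below -1 in cortex was found for 7 genes (0.0498%). Among them, 3 had a mean log2 CPM of at least 1, namely Lpl, Gm7334 and Lrrc23, and the latter pair is named after its values were seen. Lpl was chosen by these same differences, so its place among them is no result. Without ret/ret cortex replicate 2 the cortex difference of Lpl was -0.91, which would not pass the cut-off. Gm7334 averaged 8.49 CPM in ret/wt cortex, 2.05 in ret/wt thalamus, 3.48 in ret/ret cortex and 10.2 in ret/ret thalamus. Lrrc23 averaged 2.48, 2.02, 1.21 and 7.09 CPM in the same groups. Genes that were higher in ret/ret thalamus with no overlap, as Lpl was, numbered 251 (1.7%). In cortex, where the genotypes overlapped in Lpl, 226 genes (1.58%) were higher and 105 (0.735%) lower in ret/ret with no overlap.

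**Figure D2:**
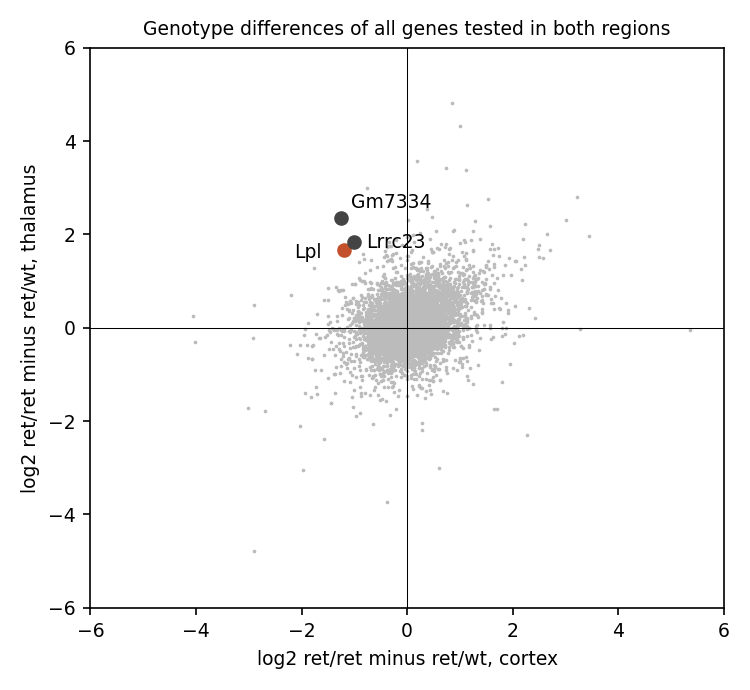
Ret/ret minus ret/wt log2 difference in cortex (x axis) and in thalamus (y axis) for the 14058 genes tested in both regions, with Lpl marked. Lpl lies at the upper left, at -1.20 in cortex and 1.67 in thalamus.

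Within single animals, the thalamus minus cortex difference in log2 CPM was -3.38, -3.43, -3.01 and -3.61 in the ret/wt animals 1 to 4. These 4 values differed little, with a mean of -3.36 ± 0.25 (SD, n = 4). As ratios, cortex held 10.6, 10.9, 8.2 and 12.4 times the Lpl level of the thalamus of the same animal. The ret/ret animals gave -0.39, 1.19, -1.40 and -0.88, a mean of -0.37 ± 1.12 (SD, n = 4). Of these 4 animals, 3 had less Lpl in thalamus than in cortex, and replicate 2 had 2.29 times as much in thalamus. No ret/ret animal came within the ret/wt range, so the 2 sets of differences did not overlap. This separation is another form of the contrast by which the gene was chosen.

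The region difference averaged over genotypes was not part of that choice and was tested. Lpl was lower in thalamus by -2.0 ± 0.27 (log2, SE; edgeR quasi-likelihood, adjusted p = 5.13e-05). Over 23 other settings of the analysis the adjusted p ranged from 1.29e-11 to 0.000761. Such calls were common: 4382 of 15286 genes (28.7%) were called, 2334 of them (15.3%) lower in thalamus. When libraries were scaled by their totals alone, the share of calls higher in thalamus went from 46.7% to 57.7%. The paired values gave the same direction, with a mean of -1.86 ± 1.76 over 8 animals and 7 of 8 below 0. The exact two-sided sign-flip permutation test over these differences gave p = 0.0312, where the smallest p possible was 0.00781. Leaving out any 1 of 5 animals in turn raised that p to 0.0625. The average combines a difference seen in all 4 ret/wt animals with the mixed values of ret/ret.

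The labels were checked against marker genes. Each score below is the mean log2 CPM of a list of genes. The cortical projection neuron list (10 genes, among them the transcription factor Tbr1) scored 5.79 to 7.43 in cortex and 1.51 to 3.58 in thalamus. The thalamic neuron list scored 2.22 to 3.45 in cortex and 4.31 to 7.75 in thalamus. Both lists thus separated all cortex from all thalamus libraries, although some cortex libraries also held genes of other regions, as given below. Library totals ran from 13415438 to 29135220 counts in cortex and from 14673558 to 21776796 in thalamus, so 3 counts stood for 0.11 to 0.235 CPM. The targeted gene, Pdgfb, was not analysed here. The pericyte list averaged 2.21 in ret/wt and 0.99 in ret/ret cortex, and 2.78 and 1.75 in thalamus.

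In cortex, 3 libraries stood apart, and they included the lowest Lpl value of each genotype and the highest of all. Ret/wt cortex replicate 3 and ret/ret cortex replicate 2 scored 6.70 and 8.20 for a cerebellum list (summed level 2080 and 4920 CPM). The other 6 cortex libraries scored 0.20 to 1.97 (40.5 to 71.4 CPM). These were the libraries with 19.1 and 4.62 CPM of Lpl. Ret/wt cortex replicate 4, with 47.3 CPM of Lpl, scored 4.21 for choroid plexus genes against -1.12 to 1.33 elsewhere in cortex. It also scored 3.69 for hippocampus genes against -0.22 to 2.06. Both libraries of the 2 animals with the cerebellum signal held 55.2 to 68.7 CPM of the Y-linked gene Ddx3y, against 0 to 0.219 CPM in the other 12 libraries. The labels give no sex, and the part of these differences in the Lpl values was not tested.

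Without ret/ret cortex replicate 2, the ret/ret cortex mean was 16.9 ± 4.63 CPM (SD, n = 3), and the log2 difference from ret/wt cortex was -0.91. Leaving out ret/wt cortex replicate 3 as well gave 36.5 ± 10.4 CPM (SD, n = 3) in ret/wt, a difference of -1.10 and no overlap between the genotypes. Without all 3 libraries that stood apart, ret/wt cortex averaged 31.1 ± 6.46 CPM (SD, n = 2) and the difference was -0.86 ± 0.27 (SE). Its direction held in each case, while its size moved from -1.20 to as little as -0.86. The difference between the thalamus and cortex effects was then 2.54 ± 0.37, and the averaged region difference was -2.12 (edgeR quasi-likelihood, adjusted p = 4.32e-06). The thalamus values come from other libraries, but ret/wt thalamus replicate 3 and ret/ret thalamus replicate 2 also stood apart. They scored 7.45 and 7.75 for the thalamic neuron list, against 4.31 to 6.35 in the other thalamus libraries. Their Lpl levels, 2.33 and 10.6 CPM, were the lowest and the highest in thalamus. The part of this score difference in the Lpl values was not tested.

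Neuron and microglia genes were then set beside Lpl within each region. In bulk tissue, fewer cells of a type and less RNA per cell cannot be told apart. The pan-neuron list (12 genes of all neurons, such as Snap25 of the synaptic release machinery and Rbfox3, which encodes NeuN) differed little between groups. Its mean score was 8.96 ± 0.13 in ret/wt cortex, 8.86 ± 0.29 in ret/ret cortex, 8.74 ± 0.23 in ret/wt thalamus and 8.64 ± 0.24 in ret/ret thalamus (SD, n = 4 each). Cortical projection neuron genes averaged 6.95 ± 0.37 in ret/wt and 6.67 ± 0.66 in ret/ret cortex, with overlap. Their median log2 genotype difference in cortex was -0.10, against 0.01 for all genes tested there. All 10 of them fell in thalamus relative to cortex, with a median of -4.04, a direction that the choice of the list fixes.

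The scores of both microglia lists, like Lpl, did not overlap between the genotypes in thalamus. The homeostatic microglia list (12 genes, among them the purinergic receptor P2ry12 and the fractalkine receptor Cx3cr1) scored 4.26 to 4.47 in ret/wt thalamus and 4.90 to 5.17 in ret/ret thalamus. Its summed level was 339 to 389 CPM against 496 to 633 CPM, with no listed gene at 0. The disease-associated microglia list, counted without Lpl, scored 4.56 to 4.75 in ret/wt and 5.36 to 6.34 in ret/ret thalamus. All 12 homeostatic genes and 22 of 23 disease-associated genes had a positive log2 difference there, with medians of 0.63 and 0.55 against -0.02 for all genes. None of them passed edgeR's adjusted threshold, 9 and 12 had an unadjusted p under 0.05, and DESeq2's Wald test called 4 from both lists together. Cst7 and Itgax of the disease-associated list averaged 0.0299 and 0.0931 CPM in ret/wt thalamus, against 5.41 and 3.45 CPM in ret/ret. They could pass the filter on low counts there only through ret/ret, so their direction was fixed in advance. Both are among the 22 genes and in the list score, which are therefore a description. Over all genes tested in thalamus, 581 of 14767 (3.93%) had an unadjusted p under 0.05 with edgeR, and DESeq2 called 37. Genes of other cell types also lay to one side there: 11 of 11 endothelial genes had a positive difference (median 0.54), as did 9 of 10 astrocyte genes (median 0.35), and 0 of 11 pericyte genes did (median -1.0). The scores of these 3 lists overlapped between the genotypes. The part of these genes in the Lpl values was not tested.

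Single microglia genes differed in size. Trem2, a lipid-sensing receptor of microglia, averaged 7.83 CPM in ret/wt thalamus and 16.1 CPM in ret/ret thalamus. Cst7, which encodes cystatin F, averaged 0.0299 CPM and 5.41 CPM in the same groups. Its ret/wt mean lay below the level of 3 counts in those libraries (0.13 to 0.194 CPM), so the size of this difference is uncertain. In cortex the homeostatic list averaged 4.67 ± 0.23 in ret/wt and 4.81 ± 0.52 in ret/ret, and its median log2 difference was 0.15. The disease-associated list averaged 4.35 ± 0.14 and 4.63 ± 0.41 there, with a median of 0.23. Neither list's median had the sign of the Lpl difference in cortex. Astrocyte genes averaged 7.91 ± 0.17 in ret/wt and 8.33 ± 0.37 in ret/ret cortex.

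Correlations of Lpl with list scores were computed over the 8 libraries of a region after removing each genotype's mean, so that the genotype difference itself did not enter. Exact permutation within genotype gave the p-values, adjusted over 34 relations (17 lists in 2 regions). None of the 34 passed the adjustment, the smallest adjusted p being 0.177. The smallest p that these permutations can give is 0.00174, and 1 relation alone at that p would have an adjusted p of 0.059. The design could therefore not carry a single relation past the threshold. Unadjusted, 3 relations in cortex and 1 in thalamus had a p under 0.05.

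In cortex, Lpl and the pan-neuron score had Pearson's r = 0.68 (exact permutation p = 0.161, adjusted 0.497) and Spearman's rho = 0.43 (exact permutation p = 0.387). The cortical projection neuron score gave r = 0.68 (exact permutation p = 0.142, adjusted 0.497) and rho = 0.50 (exact permutation p = 0.288). Without the 2 libraries whose centred score lay farthest from its median, ret/ret cortex replicates 2 and 3, these r values were -0.30 and -0.12. Both relations therefore rest on those libraries. With the genotype means kept in, r was 0.64 and 0.67, and for the homeostatic and disease-associated microglia scores 0.43 and -0.27. Such values include the cortex genotype difference by which Lpl was chosen, so they are a description. The cortex relation with thalamic neuron genes was the strongest of all, at r = -0.93 (exact permutation p = 0.00521, adjusted 0.177) and rho = -0.83 (exact permutation p = 0.0382). The libraries farthest out on that score were ret/ret cortex replicate 2 and ret/wt cortex replicate 3, those with the cerebellum signal. Without these 2 libraries its r was -0.68.

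The homeostatic microglia score in cortex gave r = 0.80 (exact permutation p = 0.0833, adjusted 0.464) and rho = 0.45 (exact permutation p = 0.330). Without ret/ret cortex replicate 2 and ret/wt cortex replicate 3 it was -0.69, so the sign turned. The disease-associated microglia score gave r = 0.08 in cortex (exact permutation p = 0.859, adjusted 0.981) and rho = 0.02. Astrocyte genes gave r = -0.86 (exact permutation p = 0.0226, adjusted 0.256) and rho = -0.81 (exact permutation p = 0.0451), with -0.51 after 2 libraries were left out. The cerebellum score gave r = -0.90 (exact permutation p = 0.0208, adjusted 0.256) and rho = -0.62 (exact permutation p = 0.193), with -0.36 after 2 libraries were left out. The libraries high in cerebellum genes were thus those low in Lpl.

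In thalamus, Lpl and the pan-neuron score had r = -0.58 (exact permutation p = 0.167, adjusted 0.497) and rho = -0.38 (exact permutation p = 0.330). The sign was opposite to cortex over all libraries, but not without the 2 farthest out on the score (-0.30 in cortex, -0.20 in thalamus). The homeostatic microglia score gave r = 0.28 (exact permutation p = 0.483, adjusted 0.781) and rho = 0.17 (exact permutation p = 0.743). The disease-associated score gave r = 0.09 (exact permutation p = 0.856, adjusted 0.981) and rho = -0.21 (exact permutation p = 0.545). The homeostatic score varied little within a genotype (SD 0.09 in ret/wt and 0.12 in ret/ret thalamus, n = 4 each). With so few libraries, these correlations cannot show whether Lpl followed the microglia scores within a genotype. Without the 2 libraries farthest out on each score, these 3 r values were -0.20, -0.49 and -0.40. Without ret/wt animal 3 and ret/ret animal 2 they were -0.86, 0.58 and 0.34, so the microglia values moved in both directions with the libraries kept. The choroid plexus score had the lowest p in thalamus, with r = 0.72 (exact permutation p = 0.0417, adjusted 0.354) and rho = 0.71 (exact permutation p = 0.0521).

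**Figure D3:**
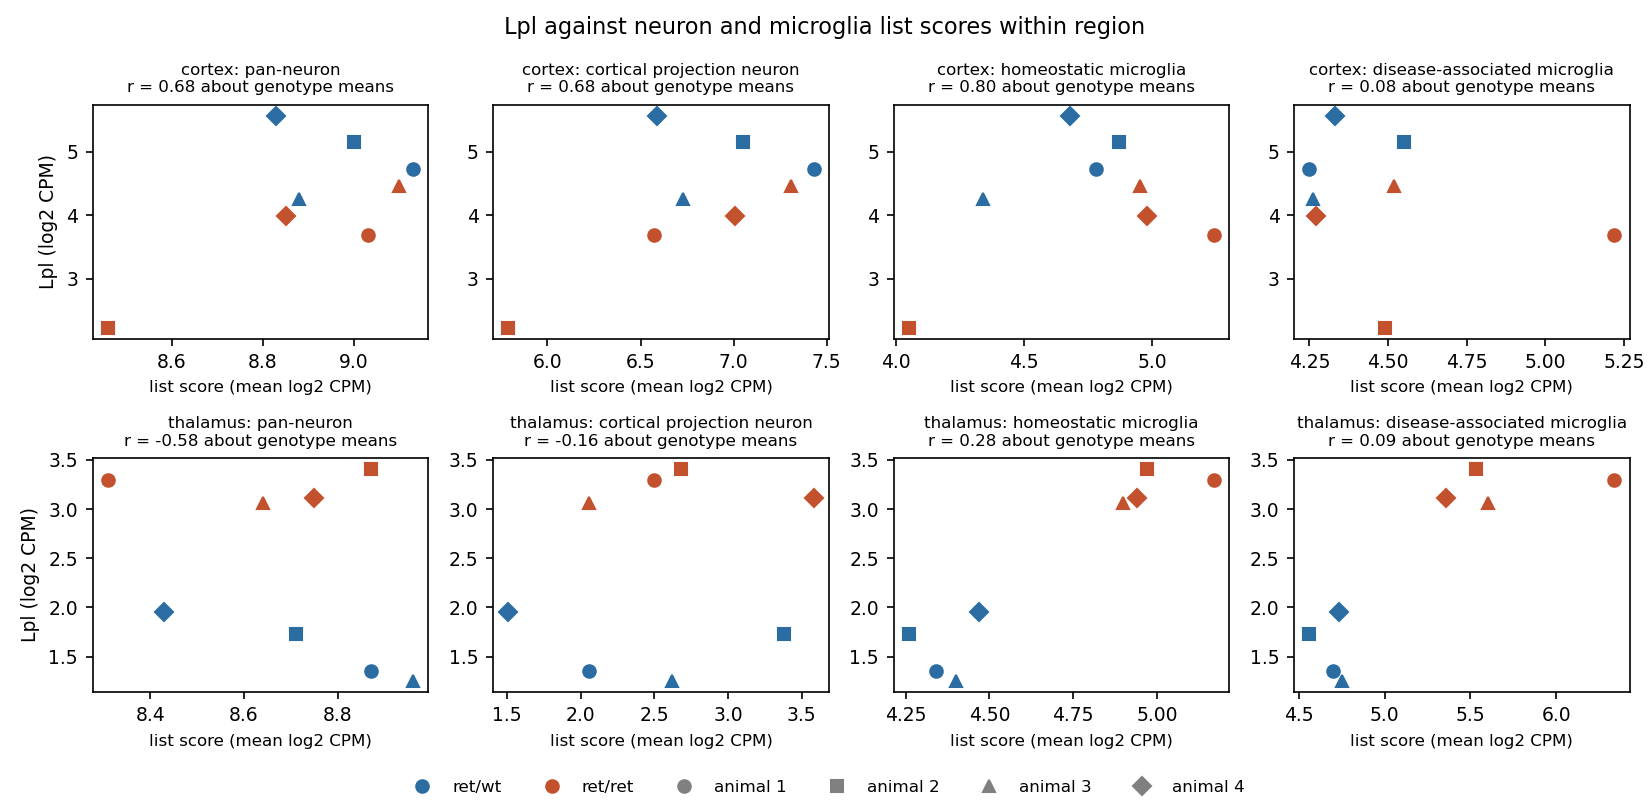
Lpl (y axis, log2 CPM) against 4 list scores (x axis, mean log2 CPM) in cortex (upper row) and thalamus (lower row), 1 point per library, with genotypes distinguished by colour. In thalamus the genotypes form separate groups on both microglia scores, and in cortex ret/ret replicate 2 lies low on Lpl and on the neuron scores.

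Single genes of the lists spread widely about these values, given as a description because they share libraries and depth. In cortex the 12 homeostatic genes had r between 0.43 and 0.85 with Lpl after the genotype means were removed. Examples were Tmem119, a microglial surface protein, at 0.78, P2ry12 at 0.76 and Csf1r, the receptor that keeps microglia alive, at 0.73. These values include ret/ret cortex replicate 2 and ret/wt cortex replicate 3, without which the r of the list score went from 0.80 to -0.69. Single genes were not recomputed without them. In thalamus the homeostatic genes ran from -0.76 (P2ry12) to 0.76, with 8 of 12 above 0. Pan-neuron genes ran from -0.32 to 0.78 in cortex, 10 of 12 above 0, and from -0.75 to 0.37 in thalamus, 10 of 12 below 0. Snap25 had r = -0.11 in cortex and -0.56 in thalamus. All 9 cerebellum genes kept lay between -0.95 and -0.78 in cortex, with the libraries of the cerebellum signal included. Astrocyte genes ran from -0.90 to 0.72 in cortex, with a median of -0.82, and from -0.61 to 0.44 in thalamus, with a median of 0.12 and 6 of 10 above 0.

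The other genes of lipoprotein lipolysis were taken from 7 lists of 62 genes, of which 59 were in the table and 50 could be tested. None was called between genotypes by edgeR in thalamus (49 tested), in cortex (48 tested) or for the difference between the effects. DESeq2 called none of them either. At an unadjusted p under 0.05 there were 2 in thalamus (4.08%, against 3.93% of all genes), 1 in cortex (2.08%, against 3.77%) and 1 for the difference between the effects (2.0%, against 1.6%). These shares were near or below the background, so the values that follow are a description. Plin2, which coats lipid droplets, held 6.87, 7.99, 6.58 and 9.56 CPM in ret/wt thalamus and 18.4, 16.4, 8.63 and 13.1 CPM in ret/ret thalamus. These ranges overlapped, and the log2 difference was 0.90 ± 0.28 (SE; adjusted p = 1.0). The second was Srebf1, a transcription factor of fatty acid synthesis, at 66.2 ± 11.1 CPM and 102 ± 40.2 CPM (SD, n = 4 each). Cd36, a fatty acid transporter, averaged 1.99 ± 0.565 CPM in ret/wt and 1.05 ± 0.288 CPM in ret/ret thalamus.

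Between regions, averaged over genotypes, 20 of the 50 genes were called by edgeR's quasi-likelihood test, 10 higher and 10 lower in thalamus, with a median log2 difference of 0.24 against 0.01 for all genes. The share called over all genes was 28.7%, with 13.4% higher and 15.3% lower in thalamus. Each list holds few genes, so the counts per list below are a description. Of the 20, 12 were called under all 23 other settings and 8 were lost under at least 1. The calls lost most often were Fabp3 (15 settings), Angptl4 (13), Rxra (12), Lmf2 (11) and Sp3 (9), and the others were Acsl6 (2), Fabp5 (2) and Pnpla2 (1). No direction reversed.

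Among genes of maturation and anchoring, 2 of 8 were called, both higher in thalamus, where 28.7% of all genes were called in either direction. Sdc4, a heparan sulfate proteoglycan of the cell surface, rose by 0.77 ± 0.21 (log2, SE; edgeR adjusted p = 0.0109). Lmf2, the relative of the lipase maturation factor, rose by 0.53 ± 0.18 (edgeR adjusted p = 0.0365). Lmf1 itself averaged 12.1 ± 2.89 CPM in ret/wt cortex, 12.7 ± 3.12 in ret/wt thalamus, 10.1 ± 2.49 in ret/ret cortex and 12 ± 2.33 in ret/ret thalamus. Gpihbp1, the endothelial carrier of LPL, had 0 counts in every ret/wt thalamus and ret/ret cortex library and at most 3 counts in any library. These counts were too few to test.

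Of the cofactors and inhibitors, 3 of 7 in the table had enough counts for a test. Angptl4, an inhibitor of LPL, was higher in thalamus by 1.10 ± 0.39 (edgeR adjusted p = 0.0466), and Apoc1, an inhibitory apolipoprotein, by 2.32 ± 0.56 (edgeR adjusted p = 0.00545). Apoc1 had at most 13 counts in any cortex library. Apoe, the main apolipoprotein of brain lipoproteins, averaged 811 ± 344 CPM in ret/wt cortex, 926 ± 319 in ret/ret cortex, 1120 ± 169 in ret/wt thalamus and 1490 ± 769 in ret/ret thalamus. Its region difference of 0.58 ± 0.26 did not pass (edgeR adjusted p = 0.112). Apoc2, the activator, had at most 6 counts in a library and Apoa5 at most 2.

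Receptors of lipoproteins and their relatives fell in 3 of 8 cases and rose in none, against 15.3% and 13.4% of all genes. Sorl1 fell by 1.13 ± 0.21, Sort1 by 0.93 ± 0.18 and Lrp8, a reelin and apolipoprotein E receptor, by 0.88 ± 0.15 on the log2 scale. Their edgeR adjusted p-values were 0.000876, 0.00104 and 0.000376. Sorl1 and Sort1 encode sorting receptors of the secretory and endosomal pathway. Vldlr, a triglyceride-rich lipoprotein receptor, had a difference of -0.45 ± 0.18 that did not pass (edgeR adjusted p = 0.0691). Of the 4 proprotein convertases, which can cleave LPL and angiopoietin-like proteins, Pcsk5 fell by 1.40 ± 0.29 (edgeR adjusted p = 0.00206).

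The other lipases split, with 2 of 5 higher and 2 of 5 lower, against 13.4% and 15.3% of all genes. Lipg, endothelial lipase and a close relative of LPL, held 9.81, 6.36, 7.21 and 4.24 CPM in ret/wt cortex and 10.5, 1.88, 6.68 and 1.17 CPM in ret/ret cortex. Its thalamus values were 0.0864, 0.666, 0.0598 and 0.452 CPM in ret/wt and 0.355, 0.402, 0.194 and 0.201 CPM in ret/ret, at most 12 counts a library. All 8 cortex libraries were above all 8 thalamus libraries, and the log2 difference was -4.27 ± 0.54 (edgeR adjusted p = 2.88e-05). Its ret/ret thalamus values lay within the ret/wt range, unlike those of Lpl. Mgll, which degrades monoacylglycerols and the endocannabinoid 2-arachidonoylglycerol, fell by 1.21 ± 0.21 (edgeR adjusted p = 0.000388). Lipa, the lysosomal acid lipase, rose by 0.65 ± 0.11 (edgeR adjusted p = 0.000501), and Pnpla2, adipose triglyceride lipase, by 0.76 ± 0.21 (edgeR adjusted p = 0.0131).

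In uptake and storage, 2 of 12 genes rose and 2 fell, near the shares over all genes (13.4% and 15.3%). Fabp5, a fatty acid binding protein, rose by 0.63 ± 0.18 (edgeR adjusted p = 0.0174) and the acyl-CoA synthetase Acsl6 by 0.47 ± 0.13 (edgeR adjusted p = 0.0147). Dgat2, which makes triglycerides, fell by 0.96 ± 0.22 (edgeR adjusted p = 0.00417) and Fabp3 by 0.58 ± 0.21 (edgeR adjusted p = 0.0466). The Fabp3 call was lost with the animal as a block (edgeR adjusted p = 0.0886). Of 10 transcription factors known from Lpl regulation, Pparg and Sp3 fell and Srebf1 and Rxra rose. Pparg, a nuclear receptor of fat cell differentiation, averaged 4.43 ± 1.95 CPM in ret/wt cortex, 3.66 ± 1.83 in ret/ret cortex, 1.09 ± 0.168 in ret/wt thalamus and 0.915 ± 0.506 in ret/ret thalamus. Its log2 difference was -2.01 ± 0.35 (edgeR adjusted p = 0.000481), and in thalamus its genotype means did not follow the order of Lpl. The corresponding values were 0.86 ± 0.18 for Srebf1 (edgeR adjusted p = 0.00195), 0.54 ± 0.19 for Rxra (edgeR adjusted p = 0.0490) and -0.57 ± 0.18 for Sp3 (edgeR adjusted p = 0.0297).

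**Figure D4:**
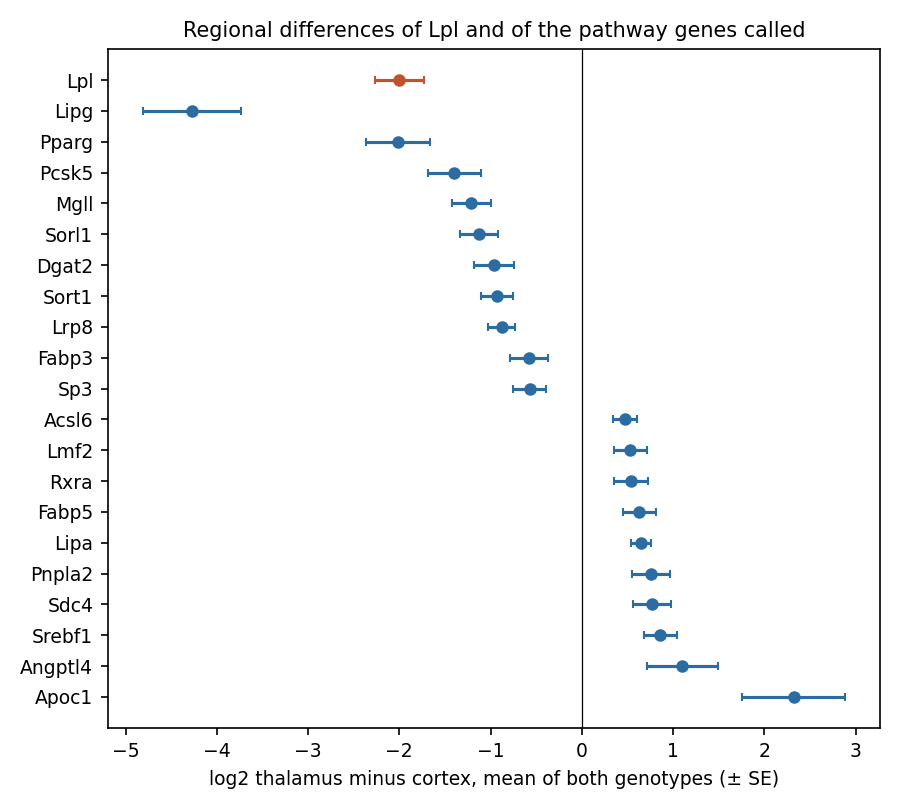
Thalamus minus cortex log2 difference averaged over genotypes, with its SE, for Lpl and the 20 called genes of the 7 lists. Lpl, at -2.0, lies beside Pparg at -2.01, and Lipg at -4.27 is the lowest of the genes drawn.

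The genes whose levels followed Lpl most closely were ranked among 12670 genes by Pearson's r of log2 CPM over the 16 libraries. The median r was 0.001 and the 95th percentile 0.684. The points share animals, libraries and regions, so r describes likeness alone. The 10 highest were Trpc6 (0.90), a cation channel, Ccdc148 (0.874), Tnks1bp1 (0.871), Ccnd2 (0.869), a cyclin of the G1 phase, Srf (0.866), the serum response factor, Htr3a (0.862), an ionotropic serotonin receptor subunit of cortical interneurons, Klhl2 (0.861), Rab3b (0.858), Dpf1 (0.855) and Mllt1 (0.854). After group means were removed, r for these 10 ranged from 0.515 (Mllt1) to 0.80 (Ccnd2).

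All 10 shared the order of Lpl in their means, with ret/wt cortex highest, then ret/ret cortex, ret/ret thalamus and ret/wt thalamus. This largely follows from their choice by r over the same libraries. Trpc6 averaged 13.5, 6.39, 3.44 and 2.42 CPM in that order, and Ccnd2 105, 60.7, 21.6 and 19.0 CPM. The step between the thalamus groups was smaller in these 2 genes than the 3.13-fold step of Lpl. The 5 lowest r values belonged to Slc35g2 (-0.871), Mad1l1 (-0.867), F3 (-0.866), Enpp1 (-0.864) and Blvra (-0.848). F3, tissue factor, averaged 41.4 CPM in ret/wt cortex, 51.6 in ret/ret cortex, 69.0 in ret/ret thalamus and 72.6 in ret/wt thalamus. Enpp1, which makes the mineralization inhibitor pyrophosphate, averaged 5.51, 7.53, 11.6 and 14.1 CPM in the same order.

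**Figure D5:**
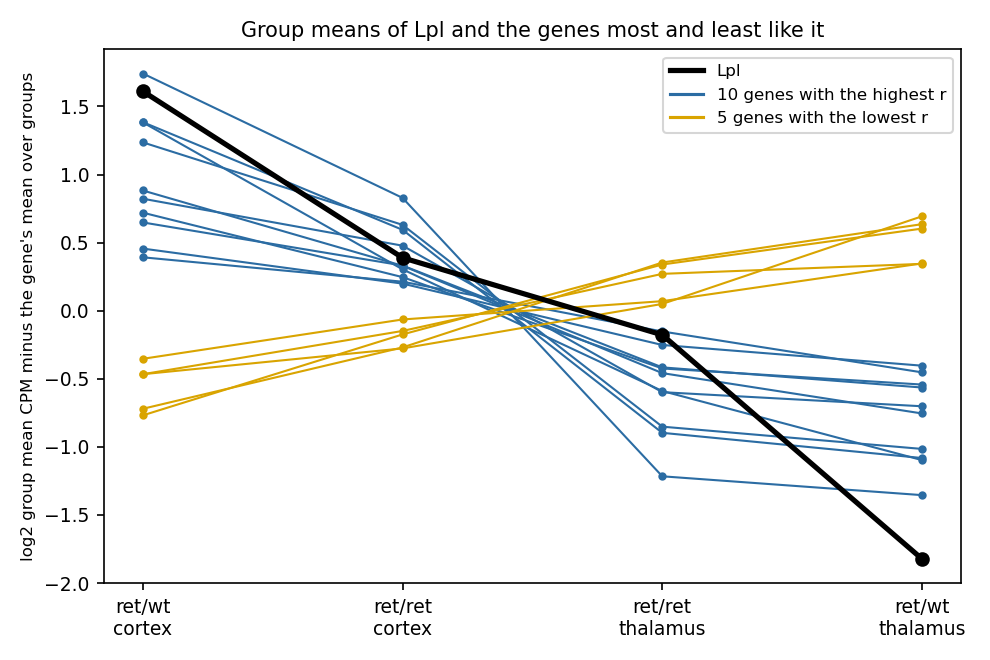
Log2 of the group mean CPM, centred for each gene, for Lpl and the genes with the highest and lowest r with it over 16 libraries. From ret/wt cortex through ret/ret cortex and ret/ret thalamus to ret/wt thalamus, the lines of the most alike genes go down with Lpl and those of the least alike go up.

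Ranked instead by the 8 within-animal differences, where the 95th percentile of r was 0.587, the leading genes were 9030624G23Rik (0.97), Fam149a (0.961), Dyrk3 (0.947), Man2b1 (0.941) and Tnip1 (0.932). Man2b1 encodes a lysosomal mannosidase and Tnip1 an inhibitor of NF-kappa-B signalling. Tnip1 averaged 26.9 CPM in ret/wt cortex, 25 in ret/ret cortex, 23.6 in ret/wt thalamus and 34.9 in ret/ret thalamus. Of these 5, Dyrk3 also had a high r over the 16 libraries (0.846), and the others were at or below 0.424.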

How the data were processed

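Polyadenylated RNA of 16 samples was sequenced from stranded libraries, per the labels' protocols. The deposited values were expected counts per Ensembl gene for 21804 genes. Of the nonzero values, 0.037% were within 1e-06 of a whole number. The submitters' processing notes name kallisto 0.44.0 and GRCm38.p6, and how transcripts were summed to genes is not given in the sources used here. Expected counts were rounded before any model. Genes that share sequence can exchange estimated reads. A gene name list gave symbols for 21581 identifiers (99.0%), and GENCODE M21 gave the position and transcripts of Lpl.

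Genes were kept by filterByExpr (minimum count 10, minimum total 15) and scaled by TMM. They were tested with edgeR 4.0.16 in R 4.3.3 (glmQLFit and glmQLFTest), with Benjamini-Hochberg adjustment at 0.05 over all genes tested. Each genotype contrast was fitted on its own region, and the others on all 16 libraries. Standard errors came from the quasi-likelihood fit. Log2 CPM used a prior count of 1. Lpl, the gene lists and the libraries to leave out were chosen with earlier results of these data known.

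Named pathway genes were those called in a comparison and otherwise 2 to 4 well-known genes per list. Likeness was ranked among kept genes that had a symbol and averaged 1 or more in log2 CPM, naming the 10 highest and 5 lowest r over 16 libraries and the 5 highest over the within-animal differences. Alternatives were DESeq2 1.42.0, other scaling, no filter, other prior counts, left-out libraries and animals, and an animal block. The models were tested on simulated data. Cortex and thalamus were paired by the animal letter of the labels, which names the same animal. Across genes, the correlation of their deviations from group means was -0.017 to 0.239, and for 5 of 8 animals the cortex library correlated more closely with the thalamus library of another animal of its genotype. Equal replicate numbers in the 2 genotypes were different animals. Permutation tests went through every sign change or every permutation within genotype, and ranks came from scipy 1.17.1.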

Additional observations from a re-analysis of the deposited data

Results flagged for a closer look

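The genotype difference of Lpl was positive in thalamus, at 1.67 on the log2 scale, and negative in cortex, at -1.20. Lpl was chosen for it and the difference was not tested.

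Among 74 sets of 4 libraries examined for 1 value far from the others, 5 held one, and chance gives about 1 in 20. Ret/wt cortex replicate 3 scored 6.70 for cerebellum genes, with the lowest Lpl level of its group. Ret/wt thalamus replicate 4 scored 3.43 for smooth muscle genes and had the highest Lpl level of its group, 3.81 CPM. Ret/wt thalamus replicate 2 scored 2.63 for hippocampus genes, with 3.27 CPM of Lpl, neither the lowest nor the highest of its group. Ret/ret cortex replicate 1 had a low oligodendrocyte score of 6.69, and its 12.9 CPM of Lpl was likewise not extreme in its group. Ret/ret thalamus replicate 2 had a low GABAergic neuron score of 3.74 beside the highest Lpl level of its group, 10.6 CPM.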

How the results depend on the processing

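The direction of each Lpl genotype and region difference held under all alternatives run. Leaving out 1 library at a time gave 1.57 to 1.84 in thalamus, -1.52 to -0.91 in cortex, 2.58 to 3.18 for their difference and -2.13 to -1.83 for the averaged region difference (log2). With the animal as a replicate block, the difference of effects was 2.98, the region difference -1.89 and the genes called between regions 4175. Of the region calls named in the text, that block lost Fabp3. DESeq2 called 37 genes between genotypes in thalamus, 38 in cortex and 4 for the interaction, against 0, 3 and 0. The cortex count was 1 without ret/wt animal 3 and ret/ret animal 2, 0 without 3 cortex libraries (chosen after seeing the data), and 0 to 2 when 1 library was left out. The cause was not tested.

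The mean within-animal difference ranged from -2.30 to -1.61 when 1 animal was left out. Without ret/wt animal 3 and ret/ret animal 2, the cortex correlations with Lpl reversed: -0.37 for pan-neuron, -0.11 for cortical projection neuron, -0.69 for homeostatic and -0.34 for disease-associated microglia genes. In thalamus the same setting gave -0.86 for pan-neuron, 0.58 for homeostatic and 0.34 for disease-associated microglia genes, with the signs kept. A prior count of 0.25 turned the thalamus value for disease-associated microglia genes to -0.01. Leaving out 1 animal gave cortex ranges of -0.04 to 0.88 for pan-neuron and -0.15 to 0.26 for disease-associated microglia genes. In thalamus the ranges were -0.48 to 0.39 (cortical projection neuron), -0.06 to 0.51 (homeostatic microglia) and -0.15 to 0.20 (disease-associated microglia). Lpl had at least 39 counts in each library, while Gpihbp1, Apoc2 and Apoa5 had at most 6 in any and were not tested.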

Other observations

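Border-associated macrophages, endothelium and adipocytes are other cell types known to hold or bind LPL. Border-associated macrophage genes, such as the mannose receptor Mrc1, scored 0.75 in ret/wt cortex, 0.76 in ret/ret cortex, 1.14 in ret/wt thalamus and 0.82 in ret/ret thalamus. In thalamus Lpl correlated with this score at r = 0.75 after removal of the genotype means (exact permutation p = 0.0521, adjusted 0.354) and rho = 0.76 (exact permutation p = 0.0712). Without 2 libraries r was 0.39, and the 8 genes ranged from 0.24 to 0.92. The 11 endothelial genes ranged from 0.03 to 0.78 there. Of 5 adipocyte genes, 3 were in the table and 0 passed the filter on low counts.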
